A study of Mus musculus with 6 samples.

Results

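Npy, the gene of neuropeptide Y, was described here together with the granin genes and the enzymes that cut prohormones, in cells that had received an siRNA against a circular RNA. The 10 genes were taken from the deposited table of 24318 genes by their symbols: Npy, Chga, Chgb, Scg2, Scg3, Scg5, Vgf, Pcsk1, Pcsk2 and Cpe. All 10 had a row. They were chosen as a functional group with the differences between these same libraries already known, so the differences of these 10 genes are given as a description and support nothing. The cells were CAD, a mouse catecholaminergic neuronal line, with no transgene named in the labels. The siCircGigyf2 group held 3 libraries from cells given siRNA against circGigyf2, a circular RNA formed from exons of Gigyf2. The siNC group held 3 libraries from cells given a negative control siRNA. Both groups are thus a single cell line after transfection, the sources used here do not give the siRNA sequences, dose or time, and nothing says that the libraries of a group came from separate cultures. Any p-value therefore measures only the spread between these libraries, which may be technical.

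Neuroendocrine cells and many neurons store peptides in dense core vesicles. Peptides are made as longer precursors, which are sorted in the trans-Golgi together with the granins, acidic soluble proteins that aggregate there and help to form the vesicle core. Convertases then cut the precursors after pairs of basic residues, a carboxypeptidase trims the basic residues off, and an amidating enzyme finishes peptides such as neuropeptide Y. Neuropeptide Y is stored with noradrenaline in sympathetic neurons and chromaffin cells, and it constricts vessels and, in the brain, promotes feeding.

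The cyclic AMP response element is a known feature of several granin promoters. Sequences are printed below for Npy and for the genes that held the element or the variant named here. They are a description, and the part of the element in the differences was not tested. RefSeq promoters on build GRCm38.p6 were found by symbol for 8 of the 10 genes, covering 250 bases before to 50 bases after the annotated start, and Vgf and Cpe were not matched. The 8 letters TGACGTCA, which read the same on both strands, occurred before the start of 3 of the 8 genes, Scg2, Chgb and Pcsk1, and in 2.03% of 27025 genes with a promoter of that length. The first base of the element lay 68 bases before the start in Scg2, 72 in Chgb and 78 in Pcsk1. For Pcsk1 these distances are from the start in the promoter table, which lies inside the span of its RefSeq gene record, since that record begins further upstream. Its first 5 letters, TGACG, searched on both strands and overlapping the full element, occurred in 7 of the 8 genes and in 23% of all. Npy was the gene without them. The variant TGACGTAA, searched on both strands and chosen after the sequences were seen, occurred in Chga, 44 bases before the start, and in 0.581% of all genes. Each line gives the bases from 90 to 31 before the start, 5′ to 3′ on the strand of the gene, with TGACGTCA or TGACGTAA in capitals.
Npy, chr6:49822620-49822679, plus strand: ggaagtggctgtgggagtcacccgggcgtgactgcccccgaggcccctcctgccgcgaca
Scg2, chr1:79440057-79440116, minus strand: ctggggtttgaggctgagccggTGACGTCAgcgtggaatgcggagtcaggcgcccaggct
Chga, chr12:102554851-102554910, plus strand: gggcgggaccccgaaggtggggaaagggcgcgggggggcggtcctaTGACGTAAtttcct
Chgb, chr2:132781552-132781611, plus strand: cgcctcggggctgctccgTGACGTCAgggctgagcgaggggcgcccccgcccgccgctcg
Pcsk1, chr13:75089767-75089826, plus strand: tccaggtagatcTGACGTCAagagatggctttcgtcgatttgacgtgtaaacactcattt
A match of letters is not a binding site, and none was measured in these libraries.

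Levels are given as FPKM, a fragment count divided by transcript length and by library size. A library's FPKM total was 604881 to 624645 with siCircGigyf2 and 578627 to 601552 with siNC. The table gives no fragment totals, but the ratio of the smallest values placed depth at 0.802 to 0.914 of that of siNC replicate 1 in the siCircGigyf2 libraries and at 0.953 to 1 in the siNC libraries. Each difference below is the siCircGigyf2 mean minus the siNC mean of log2(FPKM + 1), and a gene is said to have risen or fallen where the limma fit over 11420 genes gave an adjusted p under 0.05. Gigyf2, the host gene, had 21.8, 21.1 and 21.3 FPKM in the siCircGigyf2 libraries and 23.2, 23.1 and 23.2 FPKM in the siNC libraries, a fall of small size (log2 difference -0.11, SE 0.033, limma adjusted p = 0.0287). That row pools linear and circular molecules, and the call was lost on leaving out any library other than siCircGigyf2 replicate 1 (limma adjusted p of 0.0659 to 0.0845).

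CAD cells are named for a catecholaminergic origin, and their defining genes were unevenly present. Th, which makes the first step of catecholamine synthesis, lay between 2.82 and 3.77 FPKM in the siCircGigyf2 libraries and between 3.53 and 4.85 FPKM in the siNC libraries. Ddc, the next enzyme, stayed at or below 0.43 FPKM in the siCircGigyf2 libraries and 0.49 FPKM in the siNC libraries, under the filter of a mean of 1 FPKM. Of the sympathetic factor genes, Hand2 rose (168.8 FPKM with siCircGigyf2 and 148.9 FPKM with siNC on average), while Phox2a (59.3 and 68.3 FPKM) and Gata2 (16.1 and 19.3 FPKM) fell, by 0.20 and 0.25. The groups overlapped for Phox2a. Dbh, which makes noradrenaline, fell by 0.37 (1.14 FPKM with siCircGigyf2 and 1.77 FPKM with siNC, SE 0.12, limma adjusted p = 0.0434). Its level was near the filter, and its call was not followed under alternative settings. Over the 16 genes of this marker list the summed level was 740 to 755 FPKM in the siCircGigyf2 libraries and 642 to 648 FPKM in the siNC libraries, with 5 of the 15 tested genes higher and 3 lower, where 19.5% and 18.7% of all genes tested were called. The general neuronal genes Tubb3 and Gap43 made up most of the higher sum, with means 56.6 and 32.2 FPKM higher in the siCircGigyf2 libraries. The part of this difference in the results below was not tested. Pnmt, which marks adrenaline-making chromaffin cells, was listed at 0 in all 6 libraries, as were Ins1, Ins2, Gcg, Iapp and Prl among 7 markers of pancreatic and pituitary endocrine cells. Astrocyte markers summed to at most 0.0555 FPKM in the siCircGigyf2 libraries and 0.0676 FPKM in the siNC libraries. Of the oligodendrocyte, microglial, endothelial and fibroblast lists, each summed alone, the endothelial one was highest, at up to 7.13 FPKM with siCircGigyf2 and 6.87 FPKM with siNC. Nearly all of that sum was Pecam1, while the endothelial markers Cldn5 and Cdh5 stayed at or below 0.0693 FPKM in every library.

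Npy, the cargo peptide of the group, stood far higher in the siCircGigyf2 libraries. It had 546, 496 and 557 FPKM there and 251, 234 and 238 FPKM in the siNC libraries. The lowest siCircGigyf2 library was thus well above the highest siNC library. In bulk RNA, a shift in cell types and a change in RNA per cell cannot be told apart, here or for any gene below. The means were 533 ± 32.7 FPKM and 241 ± 9.04 FPKM (SD, n = 3 each), a ratio of 2.21 and a log2 difference of 1.14 (SE 0.048). Of all genes tested, 6 had a larger rise on this scale. The spread between libraries was small in both groups, with a coefficient of variation of 6.13% in siCircGigyf2 and 3.75% in siNC. The log2 difference lay between 1.09 and 1.19 under the 12 alternative settings and left-out libraries.

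The granins split. The secretogranin genes and Vgf rose, and both chromogranin genes fell. Scg2 encodes secretogranin II, the precursor of the peptide secretoneurin. It had 414, 399 and 395 FPKM in the siCircGigyf2 libraries and 323, 304 and 316 FPKM in the siNC libraries. All siCircGigyf2 libraries were above all siNC libraries, with means of 402 ± 9.88 and 314 ± 9.55 FPKM (SD, n = 3 each) and a log2 difference of 0.36 (SE 0.034).

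Vgf encodes a growth-factor-inducible granin whose fragments act as peptides. It had 508, 533 and 512 FPKM in the siCircGigyf2 libraries and 424, 397 and 418 FPKM in the siNC libraries, again without overlap. Its log2 difference was 0.32 (SE 0.036), close in size to that of Scg2. Scg3 encodes secretogranin III, which binds cholesterol-rich vesicle membrane and chromogranin A. It had 149, 136 and 148 FPKM in the siCircGigyf2 libraries and 122, 117 and 126 FPKM in the siNC libraries. The groups did not overlap, although siCircGigyf2 replicate 2 and siNC replicate 3 came closest, and the log2 difference was 0.25 (SE 0.044). An annotated transcript of unknown kind overlaps Scg3 on the other strand, and how strand was handled is not known here.

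Scg5 encodes the chaperone that the convertase of Pcsk2 needs for its maturation. It had 108, 104 and 109 FPKM in the siCircGigyf2 libraries and 92.8, 87.0 and 95.9 FPKM in the siNC libraries, with a log2 difference of 0.22 (SE 0.040). All siCircGigyf2 libraries were higher, although the enzyme that this chaperone serves was near 0, as given below.

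Chgb, which encodes chromogranin B, was the most abundant gene of the group in every library. It had 973, 965 and 998 FPKM in the siCircGigyf2 libraries and 1097, 1089 and 1058 FPKM in the siNC libraries. Every siCircGigyf2 library was below every siNC library, with means of 979 ± 17.3 and 1081 ± 20.6 FPKM (SD, n = 3 each) and a log2 difference of -0.14 (SE 0.034). After quantile normalization, which sets all libraries to a common distribution, the difference was -0.33. Without siNC replicate 1 it was -0.13, and the call was lost.

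Chga encodes chromogranin A, the granin most used as a blood marker of neuroendocrine tumours. It had 51.3, 52.8 and 50.2 FPKM in the siCircGigyf2 libraries and 54.0, 56.4 and 58.0 FPKM in the siNC libraries. The groups were separate but close, with a log2 difference of -0.12 (SE 0.036). The call for Chga was lost without siCircGigyf2 replicate 1 (-0.12) or 3 (-0.10) and without siNC replicate 2 (-0.12) or 3 (-0.098).

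Of the processing enzymes among the 10 genes, Cpe was expressed and both convertases were close to 0. Cpe encodes carboxypeptidase E, which trims basic residues after the cut. It had 62.3, 62.3 and 66.6 FPKM in the siCircGigyf2 libraries and 52.2, 54.0 and 55.2 FPKM in the siNC libraries. The groups did not overlap, and the log2 difference was 0.24 (SE 0.037). Pcsk1, the convertase of the regulated secretory pathway that acts early, had 0.220, 0.0605 and 0.0920 FPKM in the siCircGigyf2 libraries. In the siNC libraries it was listed at 0 in replicate 1 and had 0.113 and 0.155 FPKM in the others. Pcsk2, which acts later, had 0.0878, 0.151 and 0.184 FPKM in the siCircGigyf2 libraries and 0.221, 0.132 and 0.145 FPKM in the siNC libraries. The groups overlapped for both convertases, and neither passed the filter, so neither was tested. At this level no difference was detectable. Annotated antisense transcripts overlap Pcsk2, so its few fragments cannot be assigned to a strand.

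**Figure D1:**
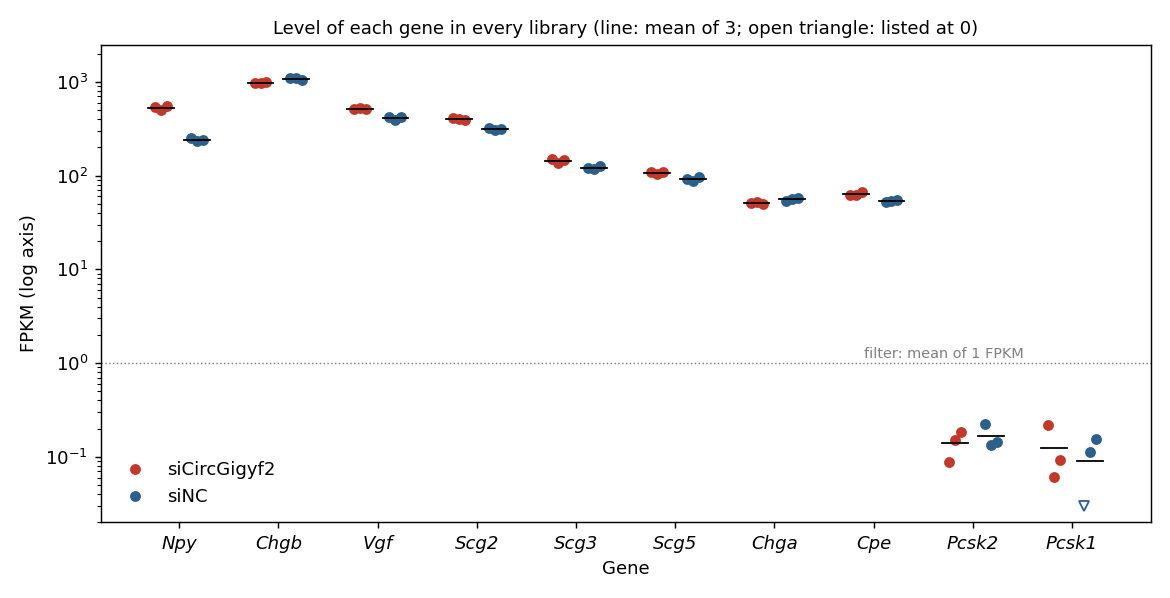
FPKM of the 10 genes in every library on a log axis, with the 3 siCircGigyf2 libraries to the left of the 3 siNC libraries for each gene a line at each mean and an open triangle for a value listed at 0. Npy lies between 496 and 557 FPKM with siCircGigyf2 and between 234 and 251 FPKM with siNC, Chgb and Chga are slightly lower with siCircGigyf2, and Pcsk1 and Pcsk2 lie below the dotted filter line in both groups.

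Counted together, 8 of the 10 genes passed the filter, of which 6 were called higher and 2 lower. Over all genes tested 38.2% were called, 19.5% higher and 18.7% lower. None of the 8 had overlapping groups, 6 lying higher and 2 lower, while 51% of all genes tested were likewise separate, 25.7% higher and 25.3% lower. Since the genes were chosen with these differences known, nothing is read from these counts. The median log2 difference of the 8 was 0.24, against 0.00035 over all genes tested. The 6 calls for a rise held under all alternatives and left-out libraries.

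**Figure D2:**
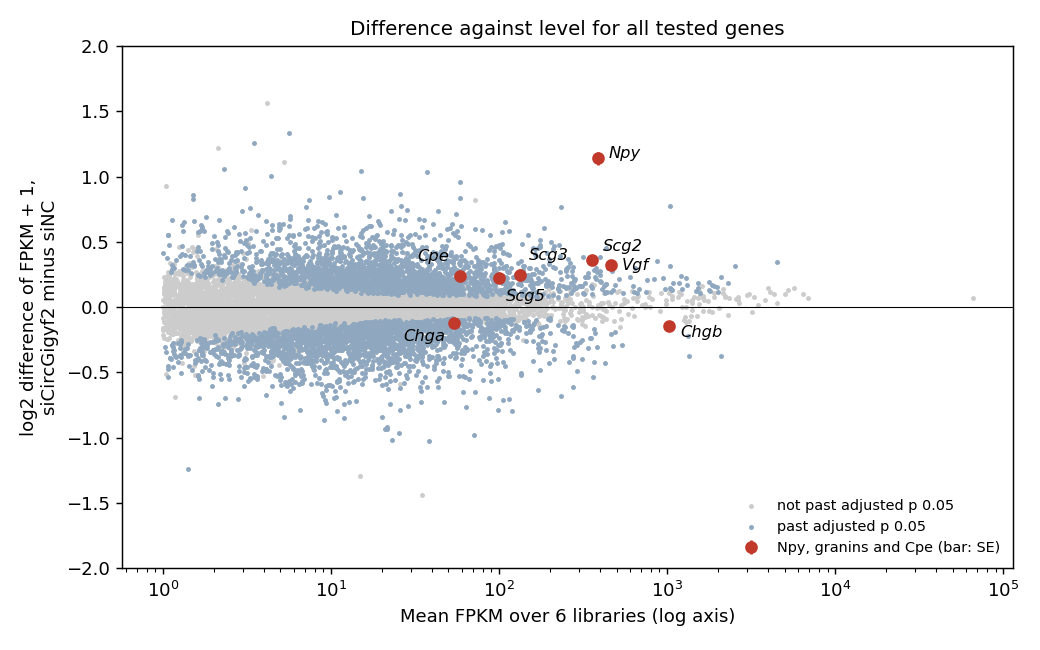
Log2 difference of FPKM + 1, siCircGigyf2 minus siNC, against the mean FPKM over 6 libraries on a log axis for the tested genes, with Npy, the granins and Cpe in red and their SE as bars, mostly within the symbols. Npy stands at 1.14 among genes of high level, Scg2 and Vgf near 0.36 and 0.32, and Chgb and Chga just below 0. The axis ends at 2 in either direction and leaves out 3 genes.

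FPKM are per length, so levels can be set side by side across genes. The lengths used are not known here, so the order below is that of the deposited values. In the siNC libraries the order of mean levels was Chgb, Vgf, Scg2, Npy, Scg3, Scg5, Chga, Cpe, Pcsk2 and Pcsk1. In the siCircGigyf2 libraries Npy stood in position 2, after Chgb, with a range that overlapped that of Vgf, whereas in the siNC libraries it stood in position 4 with a range below those of Vgf and Scg2. Cpe stood above Chga without overlap in the siCircGigyf2 libraries, while the ranges of Chga and Cpe overlapped in the siNC libraries. The ranges of Pcsk2 and Pcsk1 overlapped in both groups. Among all 24318 genes, Npy ranked 133 by mean level with siCircGigyf2 and 290 with siNC, and Chgb ranked 96 and 81.

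The 10 genes summed to 2799 ± 45.7 FPKM in the siCircGigyf2 libraries and 2373 ± 39.4 FPKM in the siNC libraries (SD, n = 3 each). They made up 0.450% to 0.463% of the FPKM total with siCircGigyf2 and 0.393% to 0.405% with siNC. Of the difference of 426 FPKM between the mean sums, Npy contributed 292 FPKM and the 6 granins together 125 FPKM. Within the granins, Vgf gained 104 FPKM, Scg2 88.5 FPKM, Scg3 23.0 FPKM and Scg5 15.5 FPKM, while Chgb fell by 102 FPKM and Chga fell by 4.63 FPKM. Npy was 18.0% to 19.6% of the summed level with siCircGigyf2 and 10.003% to 10.4% with siNC.

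Within a group, single libraries were low for several of the genes. In siCircGigyf2 replicate 2, 5 of the 8 tested genes were at the lowest level of their group, and that library had the lowest FPKM total of the 3, at 604881. In siNC replicate 2, 5 of the 8 were again at the lowest level of their group, and its total of 578627 was the lowest of its group. The part of the total in these levels was not tested.

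Among all tested genes outside the group, those whose centred log2(FPKM + 1) values over the 6 libraries were nearest to Npy by root mean square difference were Acap1, Mfap3l, Fam46a, S100a7a and Peg10. Their distances lay between 0.0673 and 0.154. They were picked for this likeness, so their values are a description. Acap1 and S100a7a were low, averaging 3.47 and 5.32 FPKM with siCircGigyf2 and 1.15 and 1.63 FPKM with siNC. With a pseudocount of 0.1 their log2 differences were 1.52 and 1.64, against 1.14 for Npy. Those of Mfap3l, Fam46a and Peg10 were then 1.11, 0.97 and 0.85. The distances were computed only with a pseudocount of 1. Mfap3l had 21.6, 19.7 and 20.3 FPKM with siCircGigyf2 and 9.36, 9.29 and 9.67 FPKM with siNC. Peg10, an imprinted gene derived from a retrotransposon, had 76.3, 71.4 and 76.9 FPKM with siCircGigyf2 and 42.6, 40.5 and 41.6 FPKM with siNC. All 5 were higher in every siCircGigyf2 library than in any siNC library. Npy exceeded them in level by a wide margin, since Fam46a, the most abundant of the 5, averaged 77.4 ± 1.13 FPKM with siCircGigyf2 and 39.4 ± 1.21 FPKM with siNC (SD, n = 3 each). Of the granins, Scg2 came nearest to Npy at 0.395, with 427 tested genes nearer, and Chgb was farthest at 0.643.

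**Figure D3:**
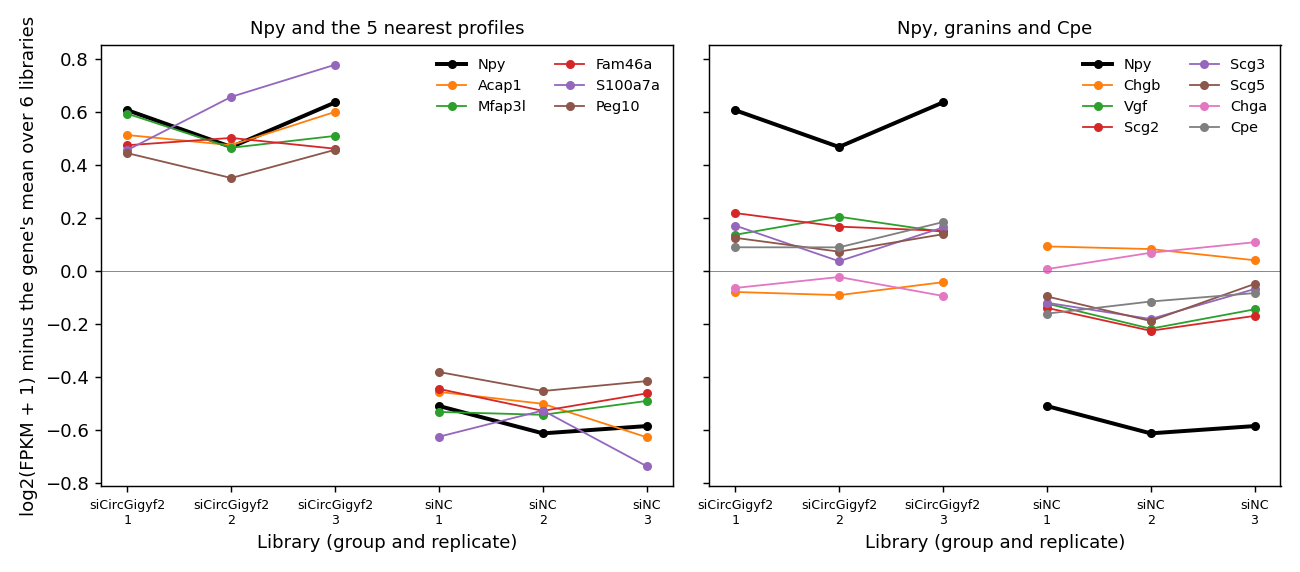
Log2(FPKM + 1) minus each gene's own mean over the 6 libraries, plotted by library with siCircGigyf2 replicates left of siNC replicates. The left panel shows Npy in black with the 5 nearest genes, and the right panel shows Npy with the granins and Cpe, where Chgb and Chga run opposite to the other genes.

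The machinery that processes peptides was examined with a list of 16 further genes. Of these, 11 were tested, and 5 rose while 2 fell (median log2 difference 0.098, or -0.047 without a filter and 0.23 with a filter of 5 FPKM). The share called was 63.6%, against 38.2% of all genes tested. This list and those below were chosen with earlier results of these data known, so their shares are a description. Pam, the amidating enzyme that finishes neuropeptide Y, was the most abundant. It had 106, 109 and 106 FPKM in the siCircGigyf2 libraries and 80.1, 76.5 and 80.9 FPKM in the siNC libraries, and rose by 0.43 (SE 0.031, limma adjusted p = 3.53e-05). Furin, the convertase of the constitutive secretory pathway, averaged 61.8 ± 1.33 FPKM with siCircGigyf2 and 47.4 ± 1.83 FPKM with siNC (SD, n = 3 each) and rose by 0.38 (limma adjusted p = 0.000104). Furin was the most abundant gene of its family in these libraries. Ctsl, a cysteine protease that also cuts some precursors in secretory vesicles, rose by 0.26 (limma adjusted p = 0.00017).

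Cpd, carboxypeptidase D of the trans-Golgi, went the other way from Cpe. It had 12.2, 11.9 and 13.0 FPKM in the siCircGigyf2 libraries and 18.9, 18.8 and 18.0 FPKM in the siNC libraries. The groups were far apart, and Cpd fell by 0.55 (SE 0.045, limma adjusted p = 5.04e-05). The other gene that fell was the convertase gene Pcsk6, at 2.22 ± 0.158 FPKM with siCircGigyf2 and 3.89 ± 0.129 FPKM with siNC (SD, n = 3 each; limma adjusted p = 0.000227). Pcsk1n, whose product inhibits the convertase of Pcsk1, rose by 0.33 (limma adjusted p = 0.00127). Pcsk6 and Pcsk1n were named after their values were seen. Pcsk5 and Qpct were listed at 0 in all 6 libraries.

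Other peptide precursors were mostly silent. Of 49 genes in this list, 41 were under the filter, 16 of them listed at 0 in all libraries, among them Penk, Gal, Adcyap1 and Tac1. Of the 8 tested, 3 rose and 1 fell (50% called, against 38.2% of all genes tested). The median log2 difference was 0.069 and its sign was not stable. It was 0.21 with a filter of 5 FPKM and also without siNC replicate 3, 0.13 with a pseudocount of 0.1, 0.15 without siCircGigyf2 replicate 3 and 0.019 without siNC replicate 2. It was -0.033 without a filter, -0.019 without siCircGigyf2 replicate 1 and -0.0075 without siCircGigyf2 replicate 2. Adm, the precursor of the vasodilator adrenomedullin, was the most abundant. It had 89.6, 87.4 and 72.2 FPKM in the siCircGigyf2 libraries and 62.7, 55.6 and 63.0 FPKM in the siNC libraries, and rose by 0.45 (SE 0.080, limma adjusted p = 0.00238). Edn3, an endothelin, averaged 20.7 ± 1.95 FPKM with siCircGigyf2 and 14.7 ± 0.296 FPKM with siNC (SD, n = 3 each) and rose by 0.46 (limma adjusted p = 0.000562). The calls for Kiss1 and Vip, both near the filter, were less steady. Kiss1, the kisspeptin precursor, had 2.13, 1.47 and 1.205 FPKM with siCircGigyf2 and 0.587, 0.191 and 1.25 FPKM with siNC. These groups overlapped, and Kiss1 rose by 0.67 (limma adjusted p = 0.0397). Its difference was 1.36 with a pseudocount of 0.1, and the call was lost there, without a filter, and without siCircGigyf2 replicate 2 (0.70), siNC replicate 1 (0.65) or siNC replicate 2 (0.45). Without siCircGigyf2 replicate 1 Kiss1 was under the filter and was not tested. Vip, the precursor of vasoactive intestinal peptide, fell by 0.37 (limma adjusted p = 0.0371) and was not called without a filter, after quantile normalization, with the replicate block, or without siCircGigyf2 replicate 1 (-0.26), siNC replicate 1 (-0.36) or siNC replicate 2 (-0.30). Its difference was -0.56 with a pseudocount of 0.1.

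A short list of receptors and peptidases of neuropeptide Y gave low values. Of the 6 genes in the table, none passed the filter and 4 were listed at 0 in all 6 libraries, including the receptor genes Npy1r and Npy5r. Dpp4, a peptidase that shortens neuropeptide Y, had the highest level of them, at 0.1803 ± 0.0502 FPKM with siCircGigyf2 and 0.168 ± 0.0122 FPKM with siNC (SD, n = 3 each).

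Genes for proteins of the dense core vesicle membrane and of its sorting and release moved in both directions. Of 48 genes in the table, 38 were tested, and 11 rose while 5 fell. The median log2 difference was -0.011 and lay between -0.027 and -0.0028 under the alternatives. The share called, 42.1%, was near the 38.2% of all genes. Syt4, a synaptotagmin found on dense core vesicles, had 110, 104 and 100 FPKM in the siCircGigyf2 libraries and 72.6, 68.8 and 71.8 FPKM in the siNC libraries. The groups lay well apart, and Syt4 rose by 0.55 (SE 0.039, limma adjusted p = 2.90e-05). The calcium sensor gene Syt1 rose by 0.30 (limma adjusted p = 0.000206) and Cplx2, a complexin that regulates fusion, by 0.39 (limma adjusted p = 0.000426). Rab3c, a vesicle GTPase gene, averaged 40.5 ± 1.55 FPKM with siCircGigyf2 and 53.4 ± 1.04 FPKM with siNC (SD, n = 3 each) and fell by 0.39 (limma adjusted p = 8.43e-05). Atp6ap1, an accessory subunit of the proton pump that acidifies vesicles, was the most abundant of the list and rose by 0.14 (limma adjusted p = 0.00513), or 0.085 after quantile normalization. Ptprn, a membrane protein of dense core vesicles named after its values were seen, averaged 89.4 ± 2.28 FPKM with siCircGigyf2 and 91.7 ± 4.35 FPKM with siNC (SD, n = 3 each), with overlapping groups and a log2 difference of -0.035 (SE 0.039, limma adjusted p = 0.516). The priming factor genes Cadps and Cadps2 were under the filter.

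Transcription factors of the neuroendocrine lineage and of the cyclic AMP response were the last list. Of 30 genes, 28 were tested, and 11 rose while 5 fell (57.1% called, against 38.2% of all genes tested). The median log2 difference was 0.059, or 0.094 without siNC replicate 1 and 0.031 without a filter. The AP-1 genes Jun, Junb and Jund rose by 0.36, 0.39 and 0.45 (limma adjusted p = 0.000179, 0.000362 and 0.00063). Of the AP-1 genes Fos and Fosl2, Fos rose by 0.34 (limma adjusted p = 0.00231). Fosl2 was not called, with a log2 difference of -0.054 (limma adjusted p = 0.409). Jun had 14.8, 15.4 and 15.4 FPKM in the siCircGigyf2 libraries and 11.6, 11.6 and 11.7 FPKM in the siNC libraries. Hand2, the most abundant of the list, rose by 0.18 (SE 0.028, limma adjusted p = 0.00126). The genes of cyclic AMP response factors and coactivators in the list did not move one way. Crem, Atf3, Crtc2 and Crtc3 were not called, with log2 differences of -0.34, 0.26, 0.037 and 0.081 (limma adjusted p = 0.0621, 0.131, 0.622 and 0.280). Creb1 rose by 0.25 (limma adjusted p = 0.0013), whereas Atf1 fell by 0.14 (limma adjusted p = 0.0166), Atf2 fell by 0.19 (limma adjusted p = 0.00505) and the coactivator gene Crtc1 fell by 0.37 (limma adjusted p = 0.00618). Rest, a repressor of neuronal genes that include several granins, rose by 0.29 (SE 0.055, limma adjusted p = 0.00322), with means of 10.2 ± 0.582 FPKM with siCircGigyf2 and 8.16 ± 0.373 FPKM with siNC (SD, n = 3 each). Fos, Fosl2, Creb1, Crem, Atf1, Atf2, Atf3, Crtc1, Crtc2, Crtc3 and Rest were named after their values were seen.

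**Figure D4:**
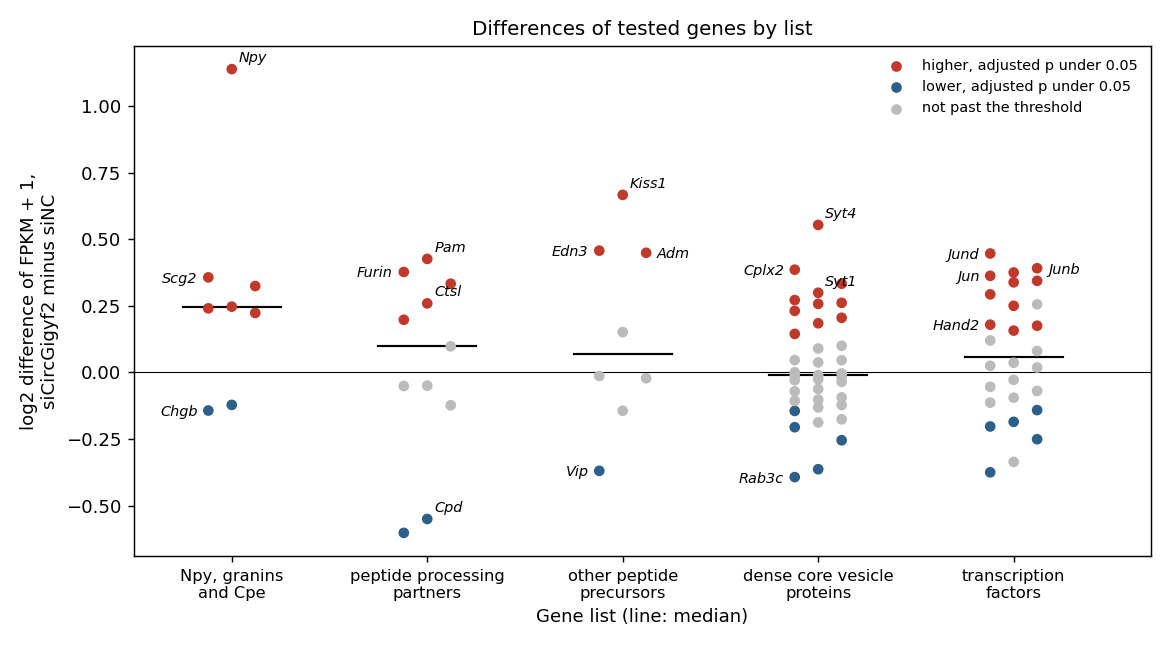
Log2 difference of FPKM + 1, siCircGigyf2 minus siNC, for the tested genes of each list, coloured by call, with a line at the median. Npy stands above all others at 1.14, Pam is the highest of the processing genes at 0.43, with Cpd at -0.55 among the lowest, and the median of the dense core vesicle list lies at -0.011.

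The 3′ UTRs of the longest coding transcripts, from the GENCODE M21 annotation joined by symbol, were searched for the letters GCCTACA on the transcript strand, a sequence picked earlier from genes that fell in these same libraries. None of the 10 genes held it, while 7.25% of 10560 tested genes did. At that share, 10 genes are too few for this absence to be read as a result. The 3′ UTRs searched ran from 180 bases in Npy to 2542 bases in Pcsk1.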

How the data were processed

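RNA was measured in 3 siCircGigyf2 and 3 siNC libraries of CAD cells, depleted of ribosomal RNA and sequenced as paired reads per the labels' protocols. Groups came from the treatment labels, and columns were matched to samples by title. The authors deposited 1 table of FPKM with 1 row per gene symbol. The genome build was mm9 per the submitters' processing notes. The aligner, quantifier, annotation and strand handling are not given in the sources used here. FPKM are not counts, so no count model was used, and each value depends on what else its library holds. Equal values between any pair of libraries made up at most 0.00623% of genes above 0.

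The tested genes averaged at least 1 FPKM across all libraries. The test ran on log2(FPKM + 1), a scale that understates changes of low genes, with limma 3.58.1 in R 4.3.3 (2 groups, mean-variance trend, two-sided). P-values were adjusted by Benjamini-Hochberg across every gene tested, with calls under 0.05. The fit was tested on simulated data. Relative depth came from the most frequent ratio of values under 0.3 FPKM to those of siNC replicate 1.

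The 10 genes and all lists were chosen with earlier results of these data known. The genes named were the 10, Gigyf2, up to 4 genes of each list past the threshold with the smallest p, the most abundant gene of each list, and the 5 profiles nearest to Npy. Any other gene is said to have been named with its values known, apart from genes named for being listed at 0 or under the filter and the cell type markers. The alternatives comprised a smaller pseudocount (0.1), a filter of 5 FPKM or none, scaling by median of ratios, quantile normalization, the replicate number as a block, and leaving out each library in turn. Promoter sequences are RefSeq's on GRCm38.p6, not on mm9, and were joined by symbol in Python 3.11.15.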

Additional observations from a re-analysis of the deposited data

How the results depend on the processing

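For the 8 tested genes of the group, 91 of 96 values under the 12 alternatives kept their direction and their side of the threshold, and 5 kept the direction but missed it, 4 for Chga and 1 for Chgb, each with a library left out. The number of the group called lower therefore ranged from 1 to 2 when single libraries were left out, and the cause was not tested. Of the peptide processing genes, 1 fell with a filter of 5 FPKM, which removes Pcsk6. Of the other peptide precursors, 0 fell with that filter, after quantile normalization and with the replicate block, and 0 to 1 when single libraries were left out. This is the call for Vip, which the filter removes. Gigyf2 had a log2 difference of -0.11 with the replicate block and of -0.12 to -0.10 with single libraries left out.

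Over all tested genes, the deviations of same-numbered libraries correlated at 0.163, -0.0208 and 0.00253 for replicates 1, 2 and 3. A library correlated best with its own number only for replicate 1, so the numbers were not treated as pairing. Npy, Scg3 and Scg5 were nevertheless lowest in replicate 2 of both groups, unlike Scg2, Vgf, Chga, Chgb and Cpe. The SE under a replicate block was smaller for Npy (0.036, from 0.048) and larger for Vgf (0.040, from 0.036). With the number as a block, 2047 genes were higher and 1926 lower, and Gigyf2 missed the threshold (limma adjusted p = 0.0598). Depth in fragments is not given, which limits what can be said of Pcsk1, Pcsk2 and other genes under the filter.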
